A study of Mus musculus with 4 samples.

Results

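The CDK inhibitors of the CIP and INK4 families were followed in stimulated helper T cells of leptin-receptor-deficient mice. They are 7 genes, Cdkn1a, Cdkn1b and Cdkn1c of the CIP family and Cdkn2a, Cdkn2b, Cdkn2c and Cdkn2d of the INK4 family. All array features annotated with 1 of these symbols were taken, which gave 37 of 33709 gene features, 23 for the CIP family and 14 for the INK4 family. Cells were taken from mice of genotype db/db, in which both copies of the leptin receptor gene carry the db mutation, known to cause obesity and diabetes. The other mice were of genotype db/+, labelled wild type, although 1 copy of that gene is mutated here too. Both groups were on the C57BL/6 background. In both, splenic CD4+CD25- T lymphocytes were stimulated for 12 h with antibodies against CD3 and CD28, and each group had 2 pools of 3 mice, 1 array per pool. The sample labels name the db/db phenotype leptin-deficient, while the series title names the receptor.

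CDK inhibitors restrain the kinases that carry a cell from G1 into DNA synthesis. INK4 proteins bind CDK4 and CDK6 and keep them from D-type cyclins, while CIP proteins bind cyclin-CDK complexes, above all those of CDK2. Resting T cells hold p27Kip1, the product of Cdkn1b, at a high level, and antigen receptor and CD28 signals lead to its loss before the cells divide.

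Of 8 markers listed for CD4 T cells 6 were measured, and all of these lay above the background level of 7.55, the median log2 intensity of all gene features, in both groups. Cd4 itself read 9.94 and 9.99 in the db/db pools and 9.67 and 9.98 in the db/+ pools. The median raw intensity was 102 and 176 on the db/db arrays and 254 and 151 on the db/+ arrays. The Y-linked gene Eif2s3y read 13.95 and 13.77 in the db/db pools, against 5.97 and 6.68, below background, in the db/+ pools. Kdm5d, also Y-linked, read 12.16 and 12.20 in the db/db pools, against 5.93 and 6.31 in the db/+ pools. No sex is given in the labels. Since these transcripts separate both db/db pools from both db/+ pools, sex and genotype cannot be told apart for any feature or list here. On parts of the arrays, runs of neighbouring spots departed from the other arrays, and these runs, called misread stretches here, held 24.5% of gene features and 14 of the 37 CDK inhibitor features. Where adjusted p-values are given as a pair, limma with Benjamini-Hochberg adjustment was run first on the 33709 gene features and then on the 25467 that lie outside misread stretches.

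None of the 37 CDK inhibitor features passed the test over all gene features, where 0.997% of features passed (limma, adjusted p below 0.05). At an unadjusted p below 0.05 there were 11 of the 37, beside 19.5% of all gene features. Outside misread stretches 2 of 23 features passed, 1 of Cdkn1b and 1 of Cdkn2b, both higher in db/db, and none was lower. The share of all features outside misread stretches that passed was 8.2%, with 6.69% higher and 1.51% lower in db/db, so the 2 of 23 stood near the background. Neither call held with the replicate number as a block, where 1.75% of all features outside misread stretches passed and none over all gene features. Fits without 1 array leave 1 pool in a group and cannot decide whether a call holds. The log2 fold change then ran from 0.79 to 0.97 for the Cdkn1b feature and from 0.60 to 0.76 for Cdkn2b. Both db/db pools lay above both db/+ pools on 5 of the 23 features, against 35.1% of all features outside misread stretches. Both lay below on 11 of the 23, against 19.9%. Over all 37 features the counts were 5 above, beside 31.2% of all gene features, and 18 below, beside 21.9%. The 5 features with higher db/db pools belonged to Cdkn1b (1), Cdkn2b (1), Cdkn2c (2) and Cdkn2d (1). The 11 with lower db/db pools belonged to Cdkn1a (2), Cdkn1b (4), Cdkn1c (1) and Cdkn2a (4), the last below background in every pool. Several features repeat 1 accession, so these counts are not of separate genes. By the brightest feature, the db/db pools were higher for Cdkn1b, Cdkn2b, Cdkn2c and Cdkn2d, lower for Cdkn1c and Cdkn2a, and overlapped for Cdkn1a.

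**Figure D1:**
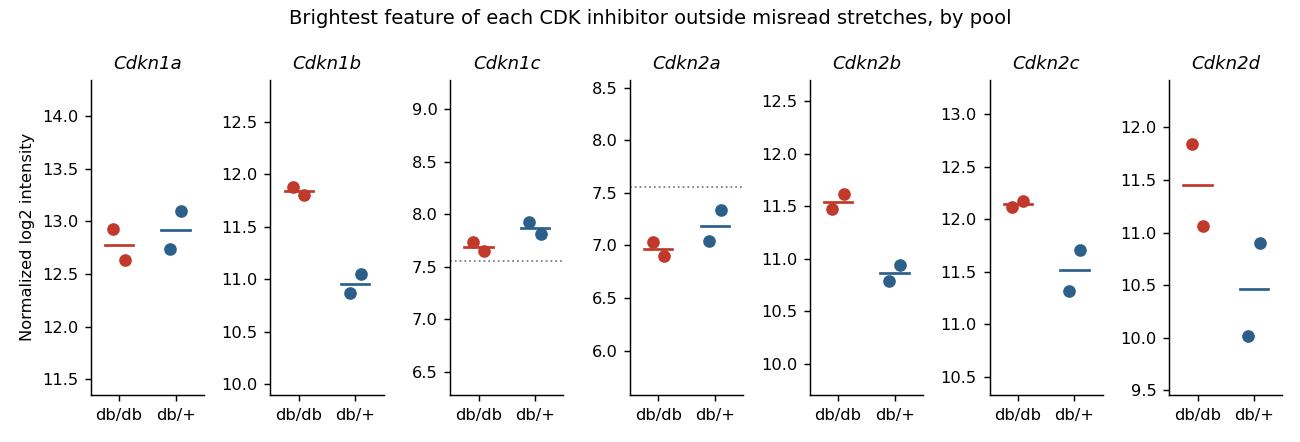
Normalized log2 intensity (vertical axis) of the brightest feature of each CDK inhibitor outside misread stretches. Points are pools, 2 db/db on the left and 2 db/+ on the right of each panel, bars are group means, each panel spans the same number of log2 units, and a dotted line marks the background level of 7.55 where it falls inside a panel. The db/db pools lie above the db/+ pools for Cdkn1b, Cdkn2b, Cdkn2c and Cdkn2d, and overlap them for Cdkn1a. They lie below them by 0.18 for Cdkn1c and, under the background level, by 0.22 for Cdkn2a. The Cdkn1b panel shows the AK169586 feature alone, while the other 11 Cdkn1b features had negative log2 fold changes.

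Cdkn1a encodes p21Cip1, an inhibitor of cyclin-CDK complexes whose transcription is induced by p53 after DNA damage. It had 10 features of 1 transcript accession, all far above background, and 6 of them lay outside misread stretches. Over these 6 the median log2 intensity was 12.69 and 12.30 in db/db pools 1 and 2, against 12.63 and 12.67 in db/+ pools 1 and 2. The pools thus covered one another, with the lowest median in db/db pool 2. The brightest feature read 12.93 and 12.63 in the db/db pools and 12.74 and 13.10 in the db/+ pools, or 12.78 ± 0.21 and 12.92 ± 0.25 as means (SD, n = 2 pools each). Its log2 fold change was -0.14, with a 95% interval from -0.71 to 0.43 in the fit over all gene features (adjusted p = 0.736 and 0.705). All 6 features outside misread stretches had a negative log2 fold change, between -0.42 and -0.12, and none was called (second adjusted p between 0.256 and 0.740). The sign of the brightest feature turned when db/+ pool 2 was left out (0.04) or db/db pool 2 was left out (0.01). The 4 features in misread stretches showed how far such spots strayed. One of them read 12.53 and 9.89 in the db/db pools and 12.43 and 12.63 in the db/+ pools, a log2 fold change of -1.32 carried by 1 array, while the other 3 had log2 fold changes of 0.16 to 0.36.

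The sequence upstream of the first annotated start of Cdkn1a is shown because it holds a p53 motif, and genes of the p53 axis are described below. In RefSeq coordinates on GRCm38.p6 it is chr17:29090729-29090978, plus strand, the 250 bases before the start. Capitals mark matches to the p53 half-site, a motif of 10 letters, at -73 to -64 and at -51 to -42 from the start.
Cdkn1a promoter: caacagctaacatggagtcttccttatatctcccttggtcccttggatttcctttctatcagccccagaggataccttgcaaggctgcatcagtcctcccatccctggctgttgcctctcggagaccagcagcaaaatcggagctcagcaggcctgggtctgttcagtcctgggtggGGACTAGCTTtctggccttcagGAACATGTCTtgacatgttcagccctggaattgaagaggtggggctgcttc
Such a match stood in 7.13% of all 32851 RefSeq windows of the same length. The window before the second Cdkn1a start held none.

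Cdkn1b encodes p27Kip1, the inhibitor that marks resting T cells. Its features fell into 2 sets with log2 fold changes of opposite sign. The feature of accession AK169586, a cDNA clone sequence, read 11.88 and 11.80 in the db/db pools, against 10.86 and 11.05 in the db/+ pools. The db/db pools lay well apart from the db/+ pools and close to each other. The means were 11.84 ± 0.06 in db/db and 10.96 ± 0.13 in db/+ (SD, n = 2), a 1.84-fold higher level in db/db (log2 fold change 0.88, standard error 0.11; adjusted p = 0.0772 and 0.0283). The 95% interval of the difference ran from 0.55 to 1.21 over all gene features, and from 0.58 to 1.18 outside misread stretches. The raw intensities were 2212 and 4210 in the db/db pools and 2943 and 2074 in the db/+ pools, so the groups overlapped before the arrays were brought to one scale. Relative to the median spot of its own array, the feature was 21.7 and 23.9 times as bright in db/db and 11.6 and 13.7 times in db/+. None of the 9 neighbouring spots on the same scan line, up to 7 to either side, was off on any array.

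The other 11 Cdkn1b features, all of accession NM_009875, had negative log2 fold changes from -1.52 to -0.54, and the 4 of them outside misread stretches had a median of -1.05. Over these 4 the median log2 intensity was 6.61 and 6.63 in the db/db pools, against 8.10 and 7.25 in the db/+ pools. The 11 features were below background in both db/db pools, and all but 1 of them were above it in db/+ pool 1. In db/+ pool 2 most were below it too, with a median of 7.38 and a highest value of 7.69 over the 11. Both db/db pools lay below both db/+ pools on 9 of the 11 features, beside 21.9% of all gene features. They did so on all 4 outside misread stretches, beside 19.9% of all features there. The gap was larger to db/+ pool 1 than to db/+ pool 2. The NM_009875 feature with the largest difference outside misread stretches read 6.64 and 6.88 in the db/db pools and 8.35 and 7.51 in the db/+ pools. With db/db at background its level is given as at least 1.30-fold lower than the db/+ mean (adjusted p = 0.209 and 0.0963). That bound rests on db/+ pool 1, since db/+ pool 2 was itself below background. The measured means of the feature were 6.76 ± 0.17 in db/db and 7.93 ± 0.59 in db/+. The highest value was that of db/+ pool 1, well above db/+ pool 2. Its raw intensity was 84 and 161 in the db/db pools and 564 and 199 in the db/+ pools, which is 0.824 and 0.915 times the median spot of the array in db/db and 2.22 and 1.32 times in db/+. None of the 11 NM_009875 features was called in either fit.

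Which set held a called feature depended on the scaling and on how misread stretches were defined. With median scaling in place of quantile normalization, outside misread stretches, 3 of the 4 NM_009875 features were called lower in db/db (adjusted p = 0.00145, 0.00706 and 6.75e-04). In that setting 7.55% of all 25467 features were called, 1267 higher and 655 lower in db/db. The AK169586 feature was then not called (log2 fold change 0.66, adjusted p = 0.167). With quantile normalization kept and stretches judged on pools of the same genotype alone, the AK169586 feature was called higher and 1 further NM_009875 feature was called lower (log2 fold change -0.996, adjusted p = 0.0495). There 8.13% of all 26735 features kept were called, 1642 higher and 531 lower in db/db. Both settings were chosen after the data had been seen. With the mean over all Cdkn1b features outside misread stretches the log2 fold change of the gene was -0.59 (adjusted p = 0.172). The direction of Cdkn1b as a gene is therefore not given here, only those of its features. The annotation holds no probe sequence, and what parts of the transcript the 2 sets read was not analysed here.

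**Figure D2:**
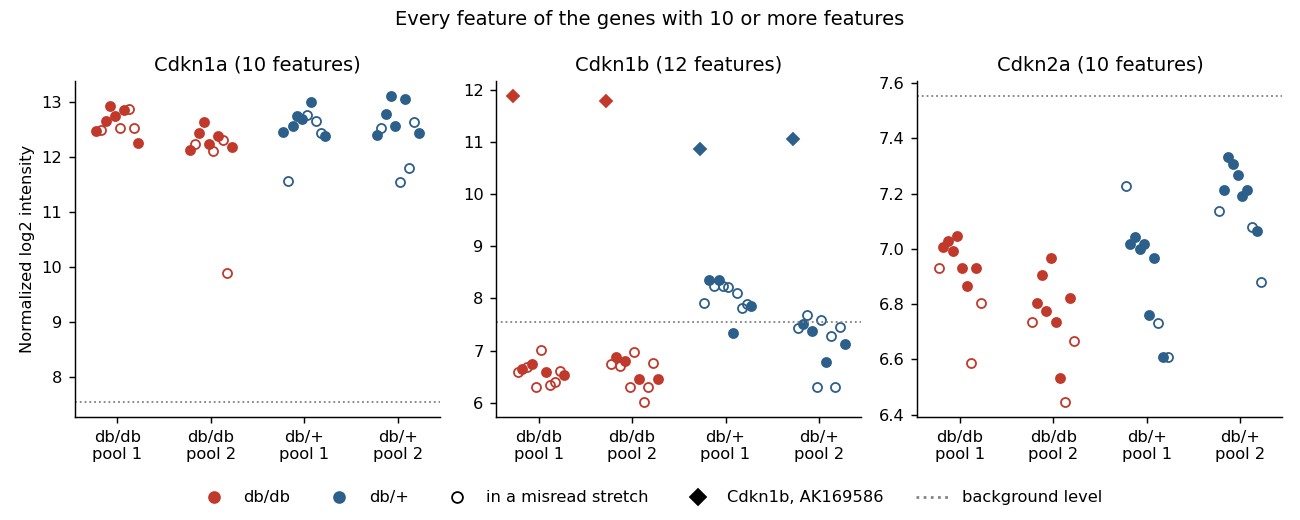
Normalized log2 intensity (vertical axis) of every feature of Cdkn1a, Cdkn1b and Cdkn2a in the 4 pools (horizontal axis), with db/db in red and db/+ in blue, open symbols for features in misread stretches and a dotted line at the background level of 7.55. The AK169586 feature of Cdkn1b (diamonds) is higher in both db/db pools, the other 11 lie under the line in both db/db pools, and all Cdkn2a features lie under it in every pool.

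Upstream of Cdkn1b the 250 bases before the start, chr6:134920151-134920400 on GRCm38.p6, plus strand, are shown because a Cdkn1b feature was called. Capitals mark CCAAT boxes (CCAAT) at -161 to -157 and -35 to -31, and a GC box (GGGCGG) at -61 to -56.
Cdkn1b promoter: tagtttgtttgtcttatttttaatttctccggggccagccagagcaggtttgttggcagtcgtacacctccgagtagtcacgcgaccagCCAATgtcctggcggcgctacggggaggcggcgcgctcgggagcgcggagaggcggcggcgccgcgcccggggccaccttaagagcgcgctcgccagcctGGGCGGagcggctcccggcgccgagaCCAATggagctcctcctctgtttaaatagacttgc
On either strand a CCAAT box stood in 33.8% and a GC box in 32.7% of all windows. The FOXO motif TGTTTAC, searched because FOXO factors are known to activate Cdkn1b, was not in these letters of Cdkn1b or of any other member window, and stood in 3.17% of all windows.

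Cdkn1c encodes p57Kip2, an imprinted inhibitor best known from embryonic development. Its 1 feature lay just above background, at 7.73 and 7.65 in the db/db pools and 7.93 and 7.81 in the db/+ pools. Both db/db pools were lower, but by little. The means were 7.69 ± 0.06 in db/db and 7.87 ± 0.09 in db/+ (SD, n = 2), a log2 fold change of -0.18 (adjusted p = 0.445 and 0.388). Its interval ran from -0.47 to 0.11 in the fit over all gene features.

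Cdkn2a encodes p16INK4a, an inhibitor of CDK4 and CDK6, and from another first exon p19ARF, which binds MDM2 and stabilises p53. All 10 of its features, of 1 accession, were below background in every pool, at 6.45 to 7.33 log2 units over pools and features. The brightest outside misread stretches read 7.03 and 6.90 in the db/db pools and 7.04 and 7.33 in the db/+ pools. At that level no fold is given. The features had log2 fold changes of -0.39 to 0.04, and none was called (first adjusted p between 0.245 and 0.979, second between 0.242 and 0.933). A Cdkn2a transcript was not detectable above background by these features, in either genotype.

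Cdkn2b encodes p15INK4b, an INK4 inhibitor that transforming growth factor beta induces in epithelial cells, and it neighbours Cdkn2a on chromosome 4. Its 1 feature read 11.48 and 11.61 in the db/db pools, against 10.79 and 10.94 in the db/+ pools. The groups did not overlap, and the pools of a group lay close together. The means were 11.55 ± 0.10 in db/db and 10.87 ± 0.11 in db/+ (SD, n = 2), a 1.60-fold higher level in db/db (log2 fold change 0.68, standard error 0.11; adjusted p = 0.0998 and 0.0414). The 95% interval ran from 0.35 to 1.01 in the fit over all gene features, and from 0.38 to 0.98 outside misread stretches. The raw intensities, 1647 and 3723 in db/db and 2805 and 1928 in db/+, overlapped, and relative to the median spot of the array they were 16.1 and 21.2 in db/db and 11.0 and 12.8 in db/+. The call outside misread stretches was lost with median scaling (0.44, adjusted p = 0.531), with cyclic loess (0.46, adjusted p = 0.0884) and when the arrays were normalized again without the stretches (0.42, adjusted p = 0.0987). Under these settings, chosen after the data had been seen, the difference stayed above 0.

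The 250 bases before the Cdkn2b start, chr4:89311033-89311282 on GRCm38.p6, minus strand, are shown because this gene was called, with the cAMP response element TGACGTCA in capitals at -46 to -39.
Cdkn2b promoter: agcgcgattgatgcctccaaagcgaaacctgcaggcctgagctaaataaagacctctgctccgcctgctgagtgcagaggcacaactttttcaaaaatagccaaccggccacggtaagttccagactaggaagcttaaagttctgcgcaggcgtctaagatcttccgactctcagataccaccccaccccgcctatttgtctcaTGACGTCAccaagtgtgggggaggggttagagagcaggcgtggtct
This element stood in 1.55% of all windows and in 1 of the 9 windows of the members, which covered 6 of the 7 genes. No GC box, CCAAT box, E2F motif (TTTNNCGC) or p53 half-site was found in these letters.

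Cdkn2c encodes p18INK4c, the INK4 inhibitor known to limit proliferation of mouse lymphocytes. Its 2 features, of different accessions, both had db/db pools above db/+ pools. The NM_007671 feature read 12.12 and 12.17 in the db/db pools, against 11.32 and 11.70 in the db/+ pools, or 12.14 ± 0.04 and 11.51 ± 0.27 as means (SD, n = 2). The db/+ pools lay further apart than the db/db pools. The log2 fold change was 0.63, with an interval from 0.14 to 1.13 in the fit over all gene features (adjusted p = 0.185 and 0.0899). The U19596 feature read 11.73 and 11.75 in the db/db pools and 11.04 and 11.52 in the db/+ pools, a log2 fold change of 0.47 (adjusted p = 0.341 and 0.215). Neither feature passed.

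Cdkn2d encodes p19INK4d, an INK4 inhibitor whose transcript varies over the cell cycle. Its 1 feature read 11.84 and 11.06 in the db/db pools and 10.02 and 10.90 in the db/+ pools. The means were 11.45 ± 0.55 in db/db and 10.46 ± 0.63 in db/+ (SD, n = 2), so the pools of each group lay far apart. The log2 fold change was 0.99, with an interval from -0.35 to 2.33 in the fit over all gene features (adjusted p = 0.368 and 0.226). Without 1 array at a time it ran from 0.55 to 1.43. Of its 14 neighbouring spots 1 was off on an array.

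**Figure D3:**
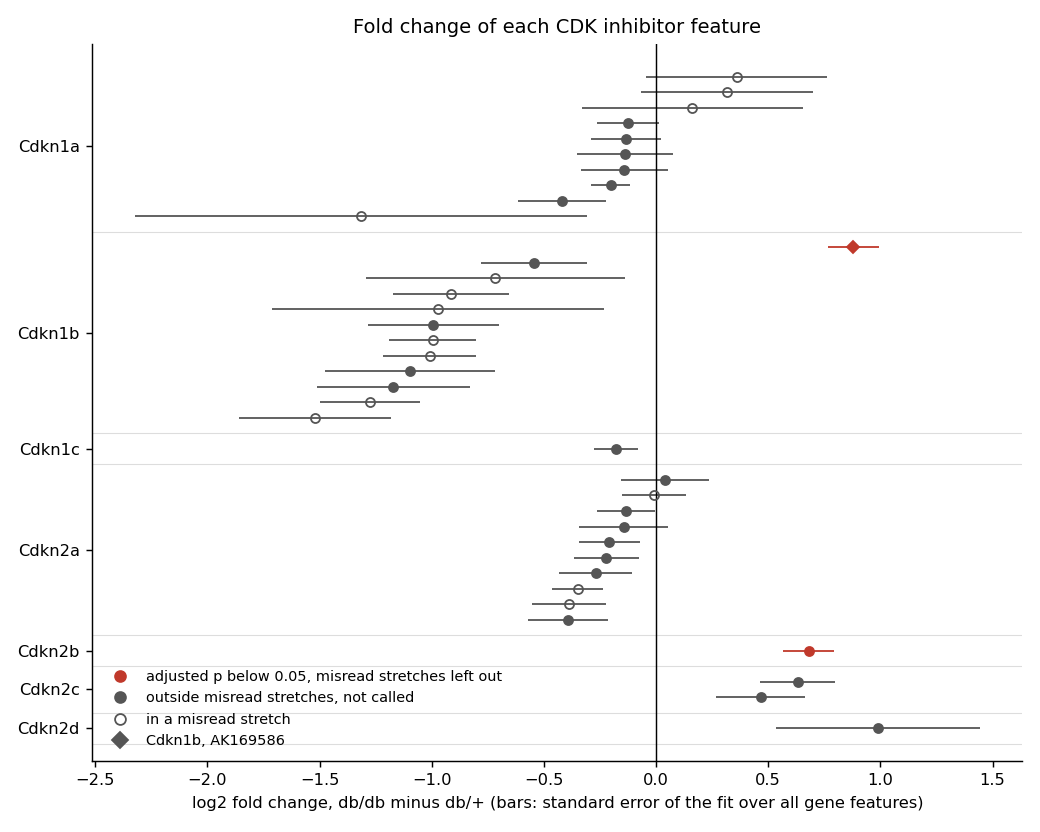
Log2 fold change of db/db minus db/+ (horizontal axis) of all 37 CDK inhibitor features, grouped by gene, with bars for the standard error of the fit over all gene features and open symbols for features in misread stretches. The 2 features called outside misread stretches (red) are the AK169586 feature of Cdkn1b at 0.88 and the Cdkn2b feature at 0.68, while the other 11 Cdkn1b features lie between -1.52 and -0.54.

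**Figure D4:**
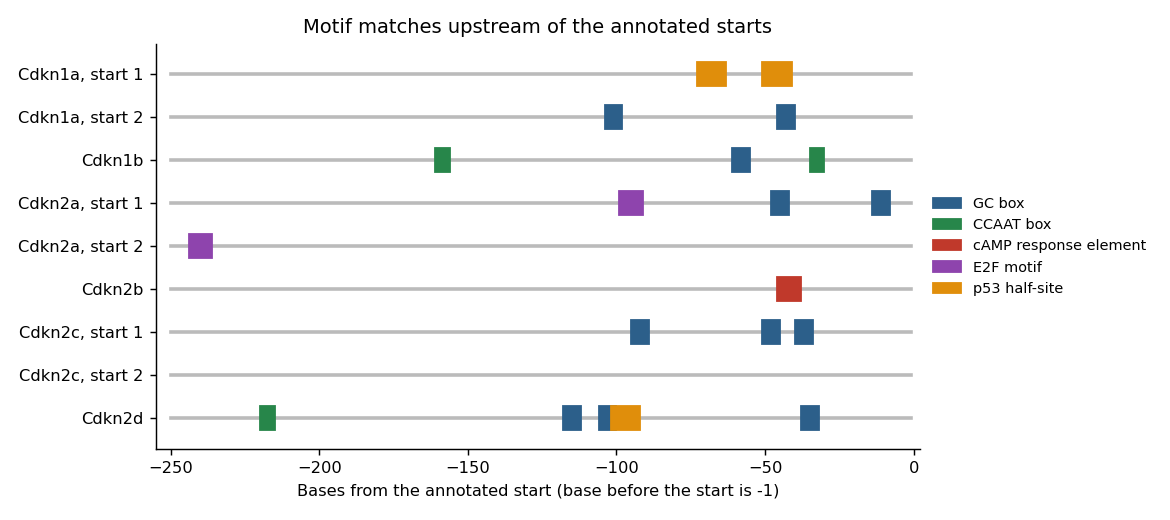
Motif matches in the 250 bases before each annotated start of 6 CDK inhibitors (horizontal axis, bases from the start). Coloured blocks are matches on either strand to the GC box, CCAAT box, cAMP response element, E2F motif and p53 half-site. GC boxes stand in 5 of 9 windows, p53 half-sites in 2 and E2F motifs, both in windows of Cdkn2a, in 2, and in Cdkn2d a GC box overlaps the p53 half-site.

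Among all motifs searched, the GC box stood in 5 of the 9 member windows and the E2F motif in 2, where 4.28% of all windows held an E2F motif. These matches describe the letters alone.

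Transcripts around the inhibitors were read from 6 lists, 1 feature per gene, the brightest outside misread stretches. Over all 16145 genes with such a feature, 7.49% were called higher and 1.57% lower in db/db outside misread stretches, and the median log2 fold change was 0.05. These shares moved with the scaling. Of 25467 gene features outside misread stretches, 1705 were higher and 384 lower here, and 1267 and 655 with median scaling. With cyclic loess they were 1146 and 551, and after normalizing again 1101 and 826. Over all gene features 2 genes of these lists were called, where 0.838% of 19087 genes were. Fits without 1 array, with 1 pool in a group, cannot decide whether such calls hold. In bulk samples, fewer cells of a type and less RNA per cell cannot be told apart. Among the cyclins and CDKs, the partners that the inhibitors bind and their activators, 3 of 16 measured outside misread stretches rose and none fell, with a median of 0.20. Cdk1, the kinase of mitotic entry, was also the 1 gene of this list called over all gene features. It read 10.63 and 10.86 in the db/db pools, against 8.94 and 8.89 in the db/+ pools, 3.57-fold higher (adjusted p = 0.0422 and 0.0142). Ccne1 and Ccne2, the E-type cyclins that activate CDK2, were the other two. Ccne1 read 13.05 and 12.98 in the db/db pools, against 10.93 and 11.57 in the db/+ pools, 3.41-fold higher (adjusted p = 0.0878 and 0.0285). Ccne2 read 9.80 and 9.72 in the db/db pools, against 7.65 and 7.98 in the db/+ pools, 3.84-fold higher (adjusted p = 0.0503 and 0.0156). Cdk4 and Cdk6, the targets of INK4 proteins, had log2 fold changes of -0.35 and -0.12 and were not called, and Cdk2 was at background.

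The retinoblastoma family and the E2F factors lie downstream of these kinases. Of 18 genes 9 rose outside misread stretches and none fell, with a median of 0.63. With median scaling 4 rose and 1 fell, and with cyclic loess or after normalizing again 5 rose and none fell. E2f1, an activator of S phase genes and itself an E2F target, read 11.06 and 11.04 in the db/db pools, against 8.85 and 9.44 in the db/+ pools, 3.74-fold higher (adjusted p = 0.0755 and 0.0230). It passed on each of 5 features. E2f7, an atypical repressor, read 9.73 and 9.45 in the db/db pools and was at background in the db/+ pools at 7.27 and 7.54 (adjusted p = 0.0486 and 0.0148). Only 1 of its 3 features was called. Rbl1, the pocket protein p107, read 13.17 and 13.29 in the db/db pools, against 12.19 and 12.34 in the db/+ pools, 1.95-fold higher (adjusted p = 0.0690 and 0.0237). Every one of these 3 genes had both db/db pools above both db/+ pools.

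Among genes of the p53 axis, to which Cdkn1a belongs, 4 of 15 fell outside misread stretches and none rose, although 8 had a positive log2 fold change and the median was 0.10. Over all 18 measured genes, each on its brightest feature, those in misread stretches included where no other was at hand, the median was -0.43, so its sign turned with the choice of features. With median scaling 1 rose and 4 fell, and after normalizing again 5 fell. In these 2 settings more of all gene features were called lower too, 655 and 826 against 384. Bbc3, which encodes the death-promoting protein PUMA, read 11.18 and 11.28 in the db/db pools, against 12.11 and 12.02 in the db/+ pools, 1.78-fold lower in db/db (adjusted p = 0.0703 and 0.0261). Phlda3, an inhibitor of AKT, was 1.76-fold lower (adjusted p = 0.100 and 0.0389), Plk2, a kinase induced by p53, 1.62-fold lower (adjusted p = 0.0922 and 0.0371) and Zmat3 had a log2 fold change of -0.67 (second adjusted p = 0.0495). Only 1 of 2 Zmat3 features passed. Over the same arrays the 6 Cdkn1a features outside misread stretches were not called.

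Among FOXO factors and genes of T cell quiescence, with which Cdkn1b shares regulators, 4 of 14 rose and 1 fell, with a median of 0.61. After normalizing again 2 rose and 1 fell, and with median scaling 4 rose and none fell. Tsc22d3, a glucocorticoid and FOXO target, was 3.15-fold higher (adjusted p = 0.0878 and 0.0285) and passed on 2 features of 3. Il7r, the interleukin 7 receptor of resting T cells, was 2.65-fold higher (adjusted p = 0.0921 and 0.0306), with 1 feature of 3 passing. Foxp1, a factor that holds T cells quiescent, was the gene that fell, 1.59-fold (adjusted p = 0.0931 and 0.0383), with 1 feature of 2 passing. In the list of p27 turnover, mostly parts of ubiquitin ligases that degrade CIP proteins, 1 of 15 rose and none fell, with a median of 0.21. The gene was Dtl, the substrate adaptor that directs p21 to destruction during S phase, which read 12.48 and 12.38 in the db/db pools, against 10.29 and 10.69 in the db/+ pools (adjusted p = 0.0576 and 0.0164). Cks1b, the cofactor of SKP2 in p27 recognition, had a log2 fold change of 0.41 and did not pass (0.167 and 0.0949), nor did Rnf123 at 0.26 (0.240 and 0.184). Among the Polycomb and other repressors of the INK4 and ARF locus 2 of 17 rose, Cbx2 (1.99-fold; adjusted p = 0.0906 and 0.0322) and Phc1 (1.53-fold; adjusted p = 0.0887 and 0.0383), both of Polycomb complex 1, and the median was 0.16. Only 1 of 2 Cbx2 features passed, and with median scaling neither gene passed. Cbx8 had a log2 fold change of 0.34 and did not pass (0.218 and 0.140).

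**Figure D5:**
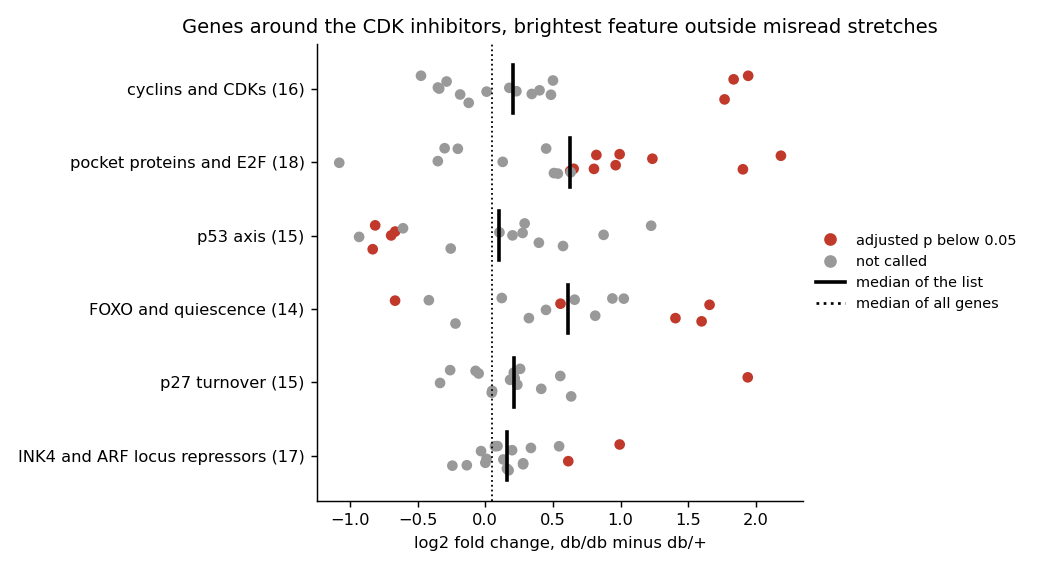
Log2 fold change of db/db minus db/+ (horizontal axis) of genes in 6 lists around the CDK inhibitors, 1 point per gene on its brightest feature outside misread stretches, with the number of genes in brackets. Red points passed the test outside misread stretches, black bars are list medians and the dotted line is the median of 0.05 over all genes. The list of pocket proteins and E2F has 9 red points to the right, and the p53 axis has 4 to the left.

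Markers of other cell types moved between the same pools, and their part in the Cdkn1b, Cdkn2b and pathway results was not tested. Summed over markers outside misread stretches, the normalized intensity of the neutrophil list was 65023 and 69146 in the db/db pools, against 7348 and 20199 in the db/+ pools, and 6 of its 9 genes rose. The macrophage and monocyte list summed to 26461 and 25077 in db/db and 4054 and 8567 in db/+, with 2 of 7 rising, while C1qb, Marco and Cd163, and, on features in misread stretches, Fcgr1 and C1qa, were at background in every pool. The B cell list summed to 19639 and 14031 in db/db and 8774 and 12341 in db/+, with 3 of 9 rising and Pax5, Blk and Cr2 at background. The CD8 T and NK cell list summed to 72577 and 72020 in db/db and 38776 and 55925 in db/+, with 2 of 9 rising, Cd8a and Cd8b1. The erythroid list summed to 9641 and 9278 in db/db and 2113 and 5354 in db/+, with none of 3 called. In the regulatory T cell list, of the CD25-positive cells that the sort removes, none of 6 was called, and it summed to 12470 and 10494 in db/db and 10269 and 4857 in db/+. The CD4 T cell list itself summed to 60248 and 62904 in db/db and 34708 and 46017 in db/+, with none of 5 called. Cd5, measured only in misread stretches, read 11.14 and 10.73 in the db/db pools, against 14.91 and 14.58 in the db/+ pools. It was called lower in db/db in the fit over all gene features (limma, adjusted p = 0.0385). Each of the 7 sums was higher in both db/db pools than in either db/+ pool. The sum over all genes was so too, at 64038888 and 62404208 in db/db and 57375137 and 59764346 in db/+. A sum is weighted to its brightest genes, and each list also held genes with negative log2 fold changes. Among them were Mpo of the neutrophil list (-0.86) and Klrb1c and Ncr1 of the CD8 T and NK cell list (-0.86 and -0.43). Nrp1 of the regulatory T cell list (-0.88) and Epor of the erythroid list (-0.85) were others. None of these was called on its brightest feature, though 1 of 2 Nrp1 features was called outside misread stretches.

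Genes with the most similar profile were found by the Euclidean distance of log2 levels, each centred on its mean over the 4 pools, among 9185 other genes above background. For Cdkn1b on its AK169586 feature they were Cdk19 (distance 0.0207) and Ankrd29 (0.0295). For Cdkn2b they were Csl (0.0153) and Rnf122 (0.0195), and for Cdkn2c Map4k4 (0.0289) and Slc41a2 (0.0326). Cdkn1a had Hsp90aa1 (0.0193) and Scyl2 (0.0201), and Cdkn1c had Cyp20a1 (0.0374) and Mtx1 (0.0474). The nearest genes to Cdkn2d, Mpst and Anpep, lay further off, at 0.195 and 0.241. With 4 pools such distances describe these arrays only.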

How the data were processed

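The deposited raw table holds the median foreground intensity of each spot on a linear scale, per the file headers. A second deposited table gives the authors' log2 values, which matched quantile-normalized log2 raw intensities within 5.00e-09. The submitters' processing notes name limma. Each array was 1 pool, and the number of arrays limits the precision: an exact permutation test of 2 against 2 pools cannot go below p = 0.333. The p-values measure the spread between pools.

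Row numbers are not feature numbers, so annotated features were placed by an array layout inferred earlier from these data. Within 218 accessions of at least 8 features its median absolute deviation was 0.130 log2 units on 1 array, against 1.09 for row numbers. The fits used limma 3.58.1 under R 4.3.3. Intensities were corrected by normexp (offset 50), quantile normalized and tested per feature, two-sided, threshold 0.05. Misread stretches were scan lines of 266 spots in which over 5% of spots departed by more than 2 log2 units from what the remaining arrays gave, 40 of 170 lines, and windows of 15 spots with at least 3. The rule uses the spread that the test uses. The background level stands in for control spots. Members, lists and tests were chosen with earlier results of these data known. All 37 member features are described. From each of 6 pathway lists the 3 genes with the smallest p above background were named, and the 2 nearest profiles per member. Further genes were named after their values were seen, among them Zmat3, Cdk2, Cdk4, Cdk6 and several markers. Promoter windows and neighbourhood came from RefSeq, GRCm38.p6, and the array files name no build. Alternatives changed background correction, scaling, dim features, misread stretches, arrays and the replicate block.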

Additional observations from a re-analysis of the deposited data

How the results depend on the processing

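Over all gene features 336 passed, 195 higher and 141 lower in db/db. The count was 149 with cyclic loess (58 higher, 91 lower), 196 with dim features left out (69 and 127), and 0 with the replicate block (5146 at an unadjusted p below 0.05). Median scaling gave 126 higher and 270 lower. It was 0 to 0 without 1 array at a time, by limma, with 5373 to 7565 features at an unadjusted p below 0.05. With misread stretches left out it was 2089 (1705 higher, 384 lower), then 1884 without background correction, 1922 with median scaling (1267 and 655), 1697 with cyclic loess (1146 and 551), 1927 after normalizing again (1101 and 826) and 2173 when stretches were judged on pools of the same genotype alone. All but the first of these 6 were chosen after the data were seen. In the same order the CDK inhibitor features called were 2, 2, 3, 1, 1 and 3, all higher in db/db except the 3 with median scaling and 1 of the last 3, which were lower, and the pathway list genes 24, 21, 18, 17, 18 and 23, against 0 and 2 over all gene features. Over all gene features the pathway genes were 1 without background correction and 0 with cyclic loess, without dim features and under the replicate block. They were 21 with the mean over the features of a gene outside misread stretches, to be set against the 24, and 0 to 0 without 1 array, misread stretches left out or not. Fits without 1 array, with 1 pool in a group, cannot decide whether the calls of CDK inhibitor features hold.

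With the replicate block and misread stretches left out, 445 gene features, 6 pathway genes and 0 CDK inhibitor features passed. The labels do not say that a replicate number pairs pools, and deviations of same-numbered pools correlated at -0.033 across features. The log2 fold change of Cdkn1a ran from -0.32 to 0.04 without 1 array, with a positive sign without db/+ replicate 2 (0.036) and without db/db replicate 2 (0.0062). The sign turned for Cdkn1b with the mean over features (-0.59). Signs held for Cdkn1c, Cdkn2a, Cdkn2b, Cdkn2c and Cdkn2d under every setting that gave a value. Some settings used sparser sets of features or arrays, and the cause of the differences between settings was not tested. Dim features, all of Cdkn2a and the NM_009875 set of Cdkn1b, stand at or near background, which limits what they can show.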
